A study of Mus musculus with 2 samples.

Results

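Accessible chromatin was examined at 7 genes of the tumour necrosis factor (TNF) superfamily in mouse bone marrow-derived macrophages (BMDMs) given R848. The genes were Tnf, Lta, Ltb, Tnfsf9 and Tnfsf15, which encode ligands, and Tnfrsf1a and Tnfrsf1b, which encode receptors. Peaks were taken by position alone: a peak belonged to a gene when that gene had the nearest protein-coding gene end within 100 kb of the peak's summit. By this rule 16 of 114785 ATAC-seq peaks belonged to the 7 genes, 10 of 37725 in the R848 list and 6 of 77060 in the untreated list. The farthest of the 16 summits lay 29854 bp from its gene end, and 0 peaks nearest to one of the genes lay beyond 100 kb.

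ATAC-seq marks accessible DNA by where the Tn5 transposase can insert, and a peak is a site where such insertions pile up. The R848 library came from wild-type BMDMs stimulated for 2 h with 100 ng/ml of R848, also named resiquimod, a synthetic agonist of Toll-like receptor 7. The untreated library came from wild-type BMDMs with no R848 (0 h). Both cultures had been grown from bone marrow with 20 ng/ml M-CSF, and each group was 1 library, so every difference below describes a pair of libraries and none was tested. In bulk cells, fewer cells with an open site and a less open site per cell cannot be told apart.

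TNF superfamily ligands are mostly membrane proteins made as trimers, some of which are shed, and they bind receptors that recruit adaptor proteins and switch on NF-kB, MAP kinases or cell death. Tnf is a classic early product of macrophages after Toll-like receptor ligation, and its product binds TNFR1 (Tnfrsf1a), which has a death domain, and TNFR2 (Tnfrsf1b), which lacks it. Lta and Ltb encode lymphotoxins, known mainly from lymphocytes, and lie beside Tnf in the major histocompatibility complex. Tnfsf9 encodes 4-1BBL, a co-stimulator of T cells, and Tnfsf15 encodes TL1A, which binds death receptor 3.

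The start region of Tnf is shown because an R848 peak covered all of it, that of Tnfrsf1b because an R848 peak covered part of it, and that of Ltb because it held the single NF-kB consensus match found while no peak touched it. Each sequence runs 5′ to 3′ on the strand of the gene, from 250 bases before to 50 bases after the transcription start, from RefSeq on GRCm38.p6 (mm10), and capitals mark motif matches. The Tnf window is chr17:35201958-35202257 on the minus strand, with TATAAA in capitals.
Tnf: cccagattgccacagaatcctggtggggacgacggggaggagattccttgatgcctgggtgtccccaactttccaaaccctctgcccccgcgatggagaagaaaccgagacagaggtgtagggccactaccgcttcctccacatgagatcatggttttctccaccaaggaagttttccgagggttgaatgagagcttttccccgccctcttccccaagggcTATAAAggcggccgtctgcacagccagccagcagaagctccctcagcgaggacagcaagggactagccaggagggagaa
The Tnfrsf1b window is chr4:145246821-145247120 on the minus strand, with the reverse complement of the interferon regulatory factor motif GAAANNGAA in capitals.
Tnfrsf1b: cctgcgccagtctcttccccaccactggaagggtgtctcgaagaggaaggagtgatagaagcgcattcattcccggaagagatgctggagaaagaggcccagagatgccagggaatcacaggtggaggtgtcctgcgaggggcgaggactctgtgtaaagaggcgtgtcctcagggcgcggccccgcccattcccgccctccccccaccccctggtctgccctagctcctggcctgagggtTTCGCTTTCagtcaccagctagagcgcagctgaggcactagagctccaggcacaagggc
The Ltb window is chr17:35194257-35194556 on the plus strand, with the NF-kB consensus match, read on the opposite strand, in capitals.
Ltb: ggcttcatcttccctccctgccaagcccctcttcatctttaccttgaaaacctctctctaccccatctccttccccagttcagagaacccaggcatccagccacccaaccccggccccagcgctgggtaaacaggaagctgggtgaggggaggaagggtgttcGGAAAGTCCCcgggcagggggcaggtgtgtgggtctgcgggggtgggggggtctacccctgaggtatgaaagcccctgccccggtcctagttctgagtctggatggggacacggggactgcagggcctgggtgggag

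Such windows were found for 6 of the 7 genes, Tnfsf9 being the exception. On both strands of the 6, TATAAA was present in 2 (Tnf and Lta) against 12.6% of 21263 windows of protein-coding genes, GAAANNGAA in 1 (Tnfrsf1b) against 8.15%, and the NF-kB consensus of 10 letters in 1 (Ltb) against 4.81%. The Tnf match lay 29 to 24 bases before the start, where TATA boxes usually lie. The motifs TGANTCA (AP-1), TGACGTCA (CRE), GAGGAAGT (PU.1 and other ETS factors) and TTGCNNAA (C/EBP) were in 0 of the 6 windows and in 6.99%, 2.23%, 3.13% and 10.2% of all windows. Matches of letters are not evidence of binding, and their absence says nothing about a factor.

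No total of reads is given for either library in the sources used here, so depth was read from the peaks. The fold enrichment of a peak is the authors' own value. It was read as the tags at the summit plus 1, over the background around it plus 1, and so is lower than the plain ratio. With the p given for the peak it can be solved for both, and the smallest pileup in a peak was 5 tags in the R848 list and 4 tags in the untreated list. The genome-wide background was 1.36 tags in the R848 library and 0.968 tags in the untreated library, a ratio of 1.40, and the median peak held 8 tags in the R848 list and 7 tags in the untreated list. Tags at summits are given below without scaling for the ratio of 1.40. Peaks lay within 1 kb of a gene end in 21.2% of the R848 list and 8.14% of the untreated list, a difference over the whole genome that touches every statement about gene starts below. All 10 macrophage markers, such as Csf1r and Adgre1, had an R848 peak (1 to 6 per gene) and 9 of 10 had an untreated peak (0 to 10 per gene). Of 5 markers each, R848 and untreated peaks were found at 2 and 1 for T cells, 3 and 1 for B cells, 4 and 4 for neutrophils and 4 and 3 for dendritic cells, with 0 to 4 peaks per gene in either list. Cd3e, Cd3g, Lck, Cd79b and Zbtb46 had none in either list, and the part of other cells in the results was not tested. Over all 21887 protein-coding genes, 13800 had a solved R848 peak and 15207 a solved untreated peak. Start windows were covered in the R848 and untreated lists at 2 and 2 macrophage markers and at 3 and 2 neutrophil markers. For T cell, B cell and dendritic cell markers 0 were covered in either list.

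The 10 R848 peaks lay at 4 of the 7 genes, namely Tnf, Lta, Tnfsf9 and Tnfrsf1b. The 6 untreated peaks lay at Tnf, Tnfsf15 and Tnfrsf1b. Ltb and Tnfrsf1a had no peak in either list. Of all 21887 protein-coding genes, 13800 had a solved R848 peak, 15207 a solved untreated peak, and 4341 no peak in either list. An R848 peak that no untreated peak overlapped by at least 1 bp is called R848-only, and the reverse untreated-only. Of the 10 R848 peaks 8 were R848-only (80%, 95% Wilson interval 49.0 to 94.3%), against 69% of the whole R848 list. Of the 6 untreated peaks 4 were untreated-only (66.7%, 30.0 to 90.3%), against 84.7% of the whole untreated list. Among peaks assigned to any protein-coding gene by the same rule, 66.9% of R848 peaks were R848-only and 79.8% of untreated peaks untreated-only. Both intervals are wide and hold the share of the whole list. They treat peaks as independent, but 5 of the 10 R848 and 4 of the 6 untreated peaks lay at Tnfrsf1b. A departure from the whole list was therefore not tested. At least 1 R848-only peak lay at 4 of the 7 genes, against 47.2% of 21887 protein-coding genes, and an untreated-only peak at 2 of the 7, against 56.9%.

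**Figure D1:**
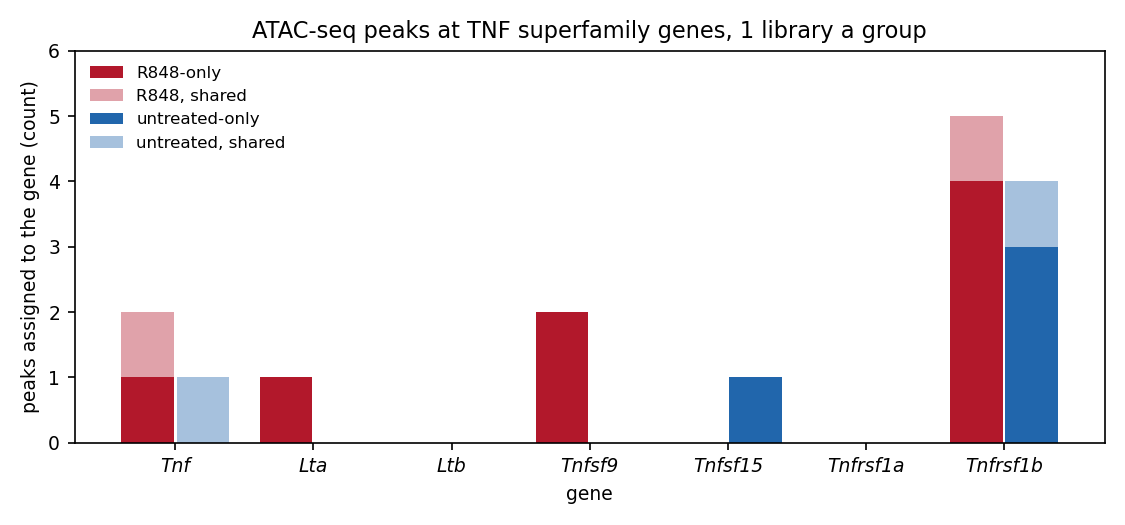
Number of peaks assigned to each of the 7 genes (y axis, count) in the R848 list (red, left bar) and the untreated list (blue, right bar), 1 library each; full colour marks peaks of that list alone and pale colour shared peaks. Tnfrsf1b holds the most in both lists, 5 R848 and 4 untreated peaks, and Ltb and Tnfrsf1a hold none.

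Of the 4 ligand genes with a start window, Tnf was the one whose window was covered, in the R848 list alone. The R848 list held 2 peaks at Tnf, and the untreated list held 1. The R848-only peak (chr17:35201709-35202269) had its summit 121 bp downstream of the transcription start and covered all 300 bp of the sequence shown above. It held 18 tags at the summit (95% exact Poisson interval 10.7 to 28.4, counting error only), with a fold of 4.63, higher than that of 77.0% of R848 peaks. With a −log10 q of 5.60 it was the strongest by that measure of the 10 R848 peaks at these genes. No untreated peak touched this window, in a list where 4 tags could suffice for a peak.

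The other Tnf peak lay inside the gene and was in both lists, with summits 43 bp apart. The R848 peak (chr17:35200499-35200926) lay 1276 bp downstream of the start and held 13 tags (6.92 to 22.2), and the untreated peak (chr17:35200507-35200949) held 7 tags (2.81 to 14.4). Its fold was 3.18 in the R848 list and 3.85 in the untreated list, so the peak with more tags had the lower fold. The background around it, which divides the fold, was 3.40 tags in the R848 library and 1.08 tags in the untreated library. The gene table gives no exons, so whether the site is exonic or intronic was not determined.

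That background carried information of its own. Outside the genome-wide floor it moved in steps of 0.02 tags, in 17024 of 17025 R848 peaks and all 40823 untreated peaks (whole to within 0.05 of a step), as counts of whole tags in a window of 10 kb would with tags drawn out to 200 bp. The settings of the peak caller are not given in the sources used here, and 200 bp was also the narrowest peak of both lists. Read so, 170 tags (145 to 198) lay around the shared Tnf summit in the R848 library, where the genome-wide mean was 68.0 per window, and 54 tags (40.6 to 70.5) in the untreated library, where that mean was 48.4. Divided by the mean of its own library, the local tag density was 2.50 (2.14 to 2.91) in the R848 library and 1.12 (0.838 to 1.46) in the untreated library. The tags of the peaks themselves are part of these counts. The window around the R848-only start peak overlaps this one and held 155 tags, a density of 2.28.

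These 2 Tnf peaks were the only ones of the 10 R848 peaks with a local density of at least 2, a level reached by 3.24% of all R848 peaks. None of the 6 untreated peaks reached it, against 14.7% of all untreated peaks. Over 13800 genes with an R848 peak, 1.80% had a highest local density at or above that of Tnf, and the median gene had 1.06. In the untreated list 47.5% of 15207 genes were at or above Tnf. Between the lists, the density at the shared Tnf peak differed by a ratio of 2.24 (R848 over untreated, exact interval 1.64 to 3.11 for counting error only). Of 11621 shared peaks with values in both lists, 34 (0.293%) had a ratio at least as large, and the median ratio was 1. The caller takes the genome mean as the least background, so a density of 1 at this floor is an upper limit, and ratios over such an untreated value are lower limits. The 34 can therefore be too few. At the floor were 54.8% of R848 and 47.0% of untreated peaks, and a pair at the floor in both lists has a ratio of 1, which enters the median.

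**Figure D2:**
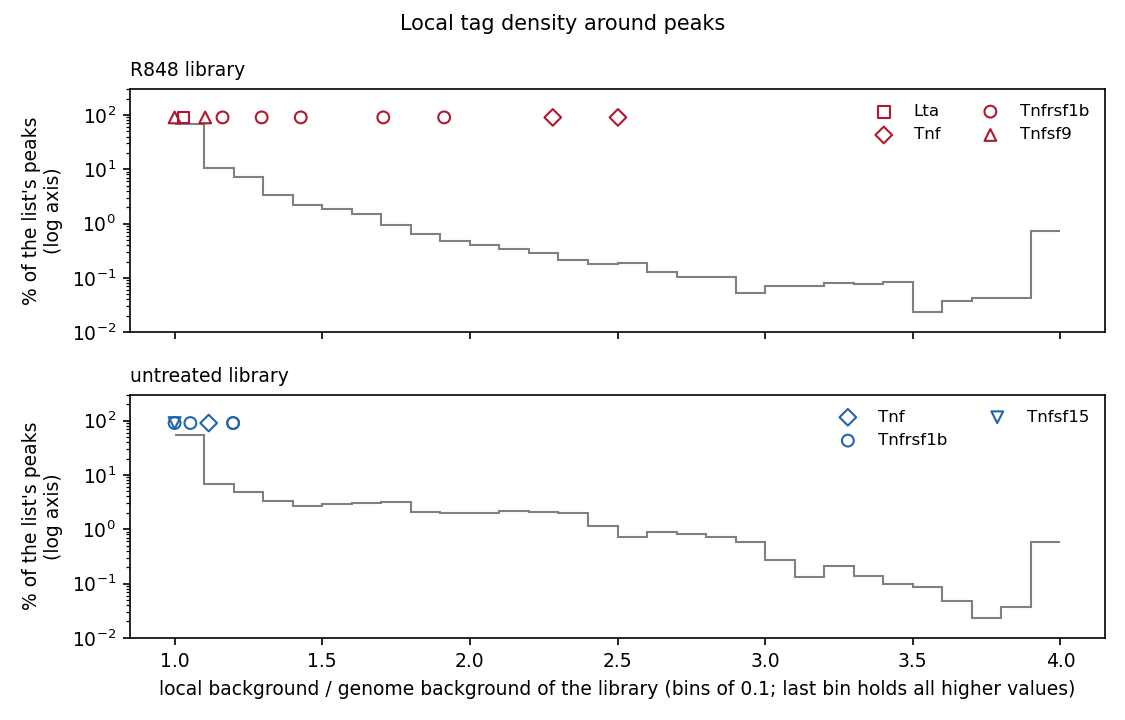
Local background divided by the genome background of the same library (x axis) for all R848 peaks (upper panel) and all untreated peaks (lower panel), as the percent of the list's peaks per bin of 0.1 (grey step line, y axis, log scale); open symbols give the peaks of the TNF superfamily genes, at a height without meaning. The Tnf peaks lie at 2.28 and 2.50 in the R848 panel and at 1.12 in the untreated panel.

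Around the Tnf cluster the R848 list held other peaks. Lta lies 1158 bp and Ltb 3062 bp from Tnf. The single R848 peak of Lta (chr17:35209902-35210456) was R848-only, lay 4700 bp outside the gene and 8271 bp upstream of the Tnf start, and held 11 tags (5.49 to 19.7) with a fold of 5.00. Its local density was 1.03, close to the genome mean. Nuclease-hypersensitive sites on both sides of Tnf are known from mouse immune cells, and whether this peak is one of them was not tested. Within 50 kb of Tnf there were 9 R848 peaks, 7 of them R848-only, and 5 untreated peaks, 3 of them untreated-only.

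Neighbouring genes took most of these. The strongest R848-only peak of this stretch was nearest to Nfkbil1, which encodes a protein related to IkB proteins, at chr17:35219654-35220026. It lay 329 bp from an end of Nfkbil1 and 17839 bp upstream of the Tnf start, and held 21 tags with a fold of 7.53. Ddx39b, an RNA helicase gene, had an R848-only peak of 13 tags, 134 bp from an end of that gene. Aif1, Prrc2a and Atp6v1g2 each had 1 R848-only peak of 7 or 8 tags. Prrc2a also had the other shared peak, with 20 tags in the R848 list and 14 tags in the untreated list. The 3 untreated-only peaks, at Lst1, Aif1 and Atp6v1g2, each held 5 tags. On the Ltb side the nearest summit to Ltb was that of the shared Tnf peak, 4426 bp away in the R848 list and 4383 bp away in the untreated list, and the Ltb start window was covered in neither.

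**Figure D3:**
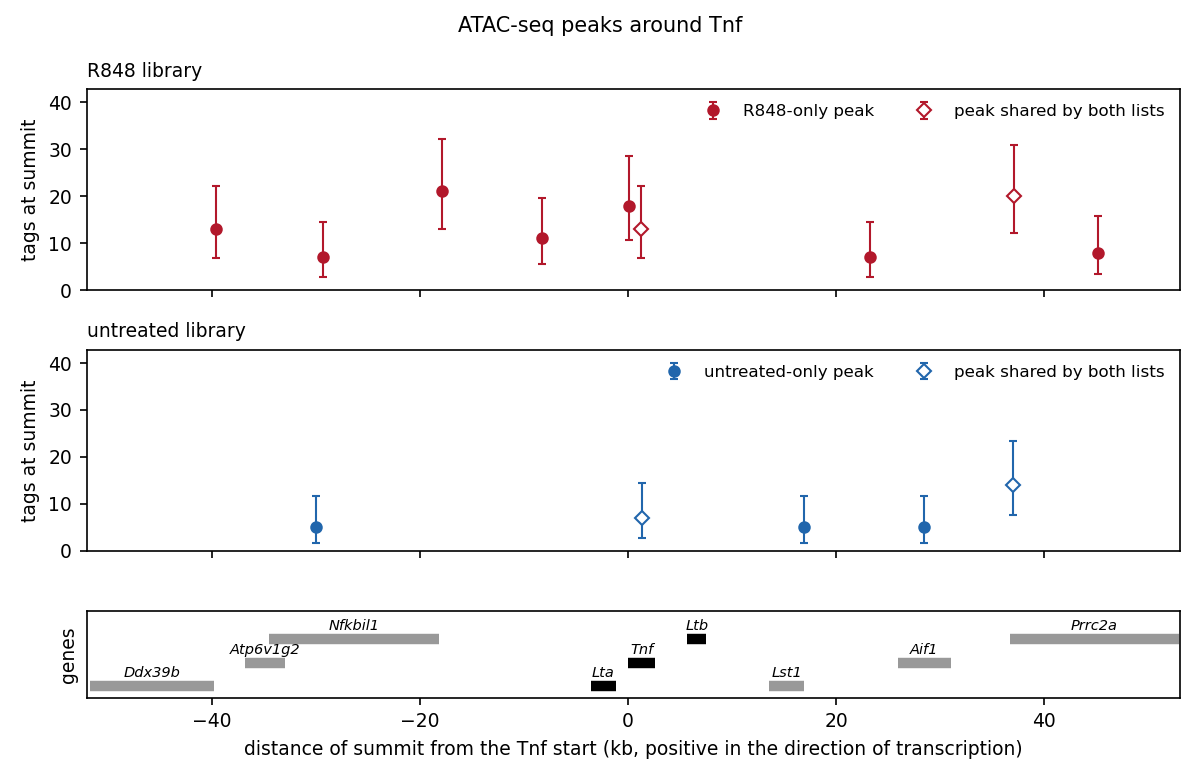
Tags at the summit (y axis) of every R848 peak (upper panel) and untreated peak (lower panel) within 50 kb of Tnf, against the distance from the Tnf start in kb (x axis, positive in the direction of Tnf transcription), with 95% exact Poisson intervals and gene spans below (Tnf, Lta and Ltb in black). Filled circles are in 1 list alone and open diamonds in both; near the Tnf start an R848-only peak of 18 tags stands beside the shared one.

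Tnfsf9 had 2 R848-only peaks and no untreated peak. The nearer (chr17:57105208-57105407) had its summit 17 bp from a gene end, outside the gene, and held 8 tags (3.45 to 15.8) with a fold of 3.81. The other (chr17:57098662-57098866) lay 6602 bp away and held 8 tags with a fold of 3.60. Both were near the median of 8 tags of the R848 list, with local densities of 1 and 1.10. The nearest untreated peak lay 44902 bp from Tnfsf9 and belonged to Slc25a23. Other ligand genes lie close by: Cd70, which encodes the ligand of CD27, is 38.2 kb away and had 2 untreated-only peaks of 5 and 10 tags, and Tnfsf14, which encodes LIGHT, is 81.7 kb away and had 1 R848-only peak of 6 tags that covered its start window.

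Tnfsf15 had 1 peak, in the untreated list alone (chr4:63774902-63775101). It lay 29854 bp upstream of the gene and held 5 tags (1.62 to 11.7) with a fold of 3.05 and a −log10 q of 0.783, so its q was above 0.05. The nearest R848 peak lay 78304 bp away and belonged to Tex48. Tnfsf8, which encodes CD30 ligand and lies 86.1 kb from Tnfsf15, had 5 untreated-only peaks and no R848 peak.

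The receptors differed from each other. Tnfrsf1b had the most peaks of the 7 genes, with 5 in the R848 list, of which 4 were R848-only, and 4 in the untreated list, of which 3 were untreated-only. One R848-only peak (chr4:145246268-145246966) lay at the start, with its summit 265 bp downstream, and covered 146 bp of the window shown above. It held 12 tags (6.20 to 21.0) with a fold of 3.92 and a −log10 q of 2.83. No untreated peak touched that window.

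The shared Tnfrsf1b peak lay inside the gene about as far from the start in both lists, 5802 bp in the R848 list (chr4:145240634-145241252) and 5785 bp in the untreated list (chr4:145240642-145241484). It held 13 tags in each list, not scaled for the genome background, which was 1.40 times as high in the R848 library. The fold was 4.76 in the R848 list and 6.48 in the untreated list, where it stood above 96.2% of peaks and was the strongest untreated peak at the 7 genes. Local density was 1.43 (1.16 to 1.74) in the R848 library and 1.20 (0.910 to 1.55) in the untreated library. Their ratio of 1.19 had an interval of 0.852 to 1.68, and 25.5% of shared peaks had a ratio at least as large, so a difference was not detectable at this depth.

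The remaining Tnfrsf1b peaks lay around the medians of their lists, 8 tags in the R848 list and 7 tags in the untreated list. The 3 other R848-only peaks held 9, 6 and 10 tags, inside the gene 24633 and 12838 bp from the start and outside it 7722 bp upstream. Their −log10 q was 1.84, 0.462 and 1.17, so the last 2 had a q above 0.05. The 3 untreated-only peaks, inside the gene 24342, 20451 and 14169 bp from the start, held 6, 7 and 6 tags. Their −log10 q was 1.10, 2.00 and 1.35, so the first had a q above 0.05. The R848 summit at 24633 bp and the untreated summit at 24342 bp were close neighbours, although their peaks did not overlap. With a gap of up to 500 bp allowed, the R848-only count of Tnfrsf1b was 3 and its untreated-only count 2. Held to a −log10 q of at least 1.3 these counts were 2 and 2. At 5 they were 0 and 1, the last being the peak shared in the full lists.

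Local density at the 5 R848 peaks, taken from the end of the gene towards its start and beyond, was 1.29, 1.16, 1.43, 1.71 and 1.91. At the 4 untreated peaks it was 1.20, 1.05, 1 and 1.20 in the same order. Windows of neighbouring peaks overlap, so these values are not independent. The high end of the R848 series faced Tnfrsf8, which encodes CD30 and lies 20.3 kb away. At Tnfrsf8 there were 7 R848-only peaks and 3 untreated-only ones, with 2 more in both lists, and a highest local density of 2.24 in the R848 list and 1.22 in the untreated list. Its strongest R848-only peak (chr4:145257931-145258392) lay 11277 bp upstream of the Tnfrsf1b start, nearer to Tnfrsf8, and held 21 tags with a fold of 5.45.

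**Figure D4:**
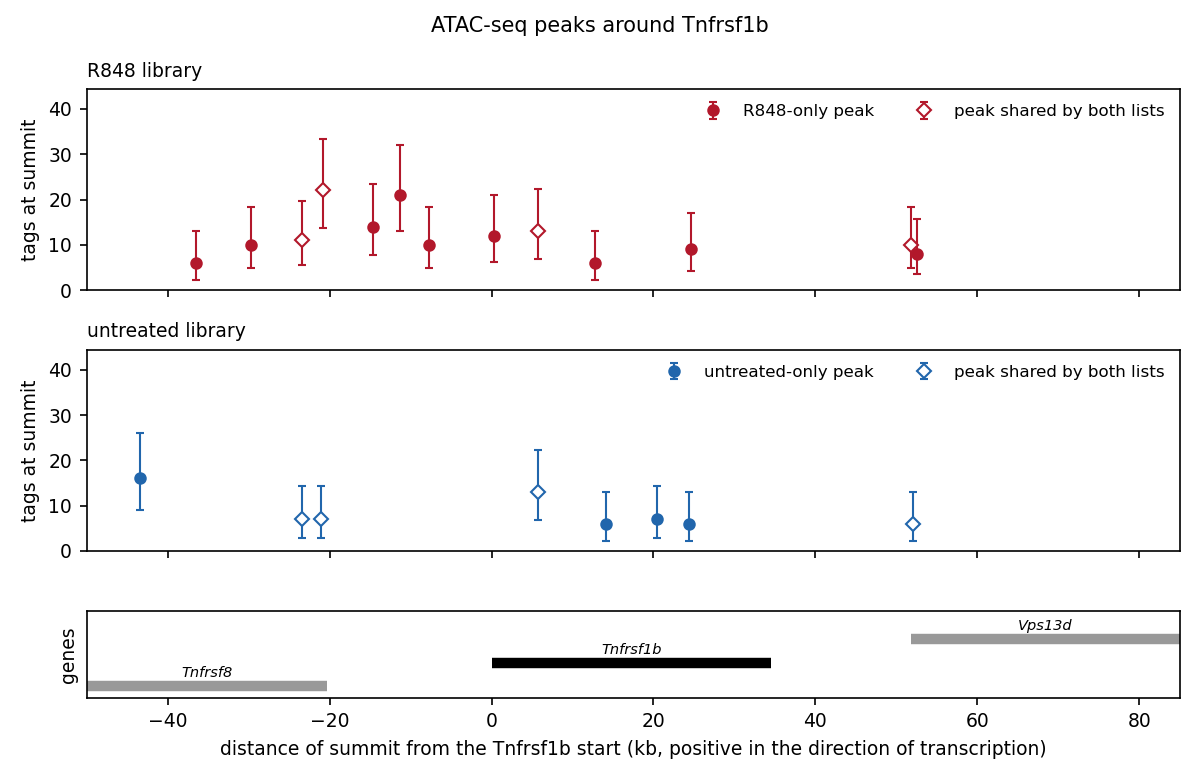
Tags at the summit (y axis) of every R848 peak (upper panel) and untreated peak (lower panel) within 50 kb of Tnfrsf1b, against the distance from its start in kb (x axis, positive in the direction of transcription), with 95% exact Poisson intervals and gene spans below (Tnfrsf1b in black). Filled circles are in 1 list alone and open diamonds in both. Between Tnfrsf1b and Tnfrsf8 lie 3 R848-only peaks, where the untreated list has none, and the one nearest to Tnfrsf1b has a q above 0.05.

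Tnfrsf1a had no peak in either list, and its start window (chr6:125349473-125349772) was covered in neither. The nearest R848 summit lay 15097 bp away and held 5 tags, and the nearest untreated summit lay 16047 bp away and held 5 tags, both nearest to the sodium channel gene Scnn1a. Within 50 kb there were 2 R848 and 7 untreated peaks, of 5 to 7 tags, at Scnn1a, Plekhg6 and Ltbr. Ltbr, which encodes the lymphotoxin beta receptor and lies 35.8 kb away, had 1 untreated-only peak and no R848 peak. A start that was open in part could go unlisted at this depth, so a missing peak is not a closed site.

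Set beside all genes, start windows were covered in the R848 list and not in the untreated list at 2 of the 6 members with a window (Tnf and Tnfrsf1b), against 12.4% of 17492 genes. The reverse held for 0 of 6, against 2.55%. The other 4 (Lta, Ltb, Tnfsf15 and Tnfrsf1a) were covered in neither list, as were 10559 of the 17492 genes. Of the 10 R848 peaks 3 lay within 1 kb of a gene end, at Tnf, Tnfsf9 and Tnfrsf1b, against 21.2% of the whole R848 list, and of the 6 untreated peaks 0 did, against 8.14% of the whole untreated list. Counts this small cannot be told from those shares.

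Other ligand genes of the superfamily counted 11 R848-only and 34 untreated-only peaks over 13 genes, or 0.846 and 2.62 per gene, where all protein-coding genes had 0.885 and 1.74. The members had 1.14 and 0.571 per gene, and Tnfrsf1b alone gave 4 of their 8 R848-only and 3 of their 4 untreated-only peaks. Such means also depend on how close other genes lie, because each peak goes to the nearest gene end. Tnfsf11, which encodes RANKL, held 3 R848-only and 6 untreated-only peaks, and Tnfsf18, which encodes GITRL, had 2 and 1. Fasl had 2 and 2, Tnfsf4, Tnfsf13b (BAFF) and Tnfsf12 (TWEAK) had 1 R848-only peak each, with 1, 1 and 2 untreated-only. Eda had 0 R848 peaks and 9 untreated-only ones and lies on the X chromosome, where the R848 list held 820 and the untreated list 4556 peaks.

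The other 26 receptor genes counted 25 R848-only and 41 untreated-only peaks, or 0.962 and 1.58 per gene. After Tnfrsf8 came Tnfrsf14, which encodes HVEM, with 4 R848-only and 2 untreated-only peaks, Tnfrsf21 with 2 and 2, and Tnfrsf13b (TACI) with 2 and 1. Fas, which encodes a death receptor, had 1 and 3, and its R848-only peak of 14 tags had a fold of 6.30. Cd40, which encodes a co-stimulatory receptor, had 1 R848-only peak of 11 tags and no untreated peak. Eda2r on the X chromosome had 0 R848-only and 7 untreated-only, Tnfrsf19 had 1 and 5, and Tnfrsf11a (RANK) had 1 and 4. Tnfrsf9, the receptor of the Tnfsf9 product, and Tnfrsf25, the receptor of the Tnfsf15 product, had no peak in either list. Relt, with 1 R848-only, 0 untreated-only and 1 shared peak, had the same counts as Tnf, but so did 546 protein-coding genes in all, so counts over 2 libraries single out neither.

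Genes of TNF receptor signalling counted 41 R848-only and 52 untreated-only peaks over 35 genes, or 1.17 and 1.49 per gene. Rhbdf2, which encodes iRhom2, a partner of the protease that sheds TNF, had 4 R848-only and 2 untreated-only peaks. Traf1, which encodes an adaptor of TNFR2, had 4 and 1, Ikbkb, an IkB kinase gene, had 3 and 0, and Cflar, which encodes an inhibitor of caspase-8, had 3 and 3. Map3k7 (TAK1) had 3 and 6, Tnfaip3 (A20) had 3 and 4, Map3k5 (ASK1) had 2 and 5, and Tab3 on the X chromosome had 0 and 5. Start windows of 30 of these genes were known, and 6 were covered in the R848 list alone, 0 in the untreated list alone, 14 in both and 10 in neither, where 2167 (12.4%), 446 (2.55%), 4320 and 10559 of the 17492 genes were so covered. At least 1 R848-only peak lay at 7 of 13 ligand, 14 of 26 receptor and 19 of 35 signalling genes, and an untreated-only peak at 11, 16 and 20. The shares over all protein-coding genes were 47.2% and 56.9%. The R848-only shares of the lists, 53.8% for ligands and for receptors and 54.3% for signalling genes, were near the first of these. The untreated-only shares were 84.6% for ligands, 61.5% for receptors and 57.1% for signalling genes. That of the 13 ligand genes was farthest above 56.9%, and this was not tested.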

How the data were processed

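The files were 2 peak lists, 1 per library, and the labels name no pooling. Per the submitters' processing notes, bcl2fastq 2.19, Bowtie2 2.2.6, MACS2 2.2.7.1 and the mm10 build were used. Filters, handling of duplicates, shifting of insertions and the number of reads are not given in the sources used here. Libraries had been amplified for 15 PCR cycles, per the labels' protocols. The deposited fold was read as a ratio of summit pileup to background within a library, with 1 added to both. The authors' −log10 p and −log10 q belong to that summit, and the deposited score was not used. The lowest −log10 p of either list was 2.01, just past a p of 0.01. A q above 0.05 was given to 48.2% of R848 and 36.5% of untreated peaks.

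Pileup and background were solved together as whole tags and a Poisson mean, within 0.1% of the given −log10 p, for 99.9% of peaks in each list. Genes were the 21887 protein-coding genes of RefSeq on GRCm38.p6, chromosomes 1 to 19, X and Y. Start windows and strand came from the RefSeq promoter table of that build. Overlap, assignment and solving were tested on simulated data. Tables were handled with pandas 2.3.3, statistics with scipy 1.17.1 and numpy 2.4.6, and plots with matplotlib 3.10.9, under Python 3.11.15. The 7 genes, the lists and the alternatives were chosen with earlier results of these data known, and the local tag density, start windows over all genes and the count within 1 kb were added after the files were seen. Besides the members, the text names per list the 6 genes with the most R848-only and the 3 with the most untreated-only peaks, genes with the counts of Tnf, and genes of peaks within 50 kb of Tnf. Genes named beside Tnfsf9, Tnfsf15, Tnfrsf1a and Tnfrsf1b, the receptors of Tnfsf9 and Tnfsf15, and the genes of the closing observations were chosen after their values were seen. Intervals cover counting error only, and PCR copies are not independent molecules.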

Additional observations from a re-analysis of the deposited data

How the results depend on the processing

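The counts at the 7 genes are small and rest on weak peaks. With both lists held to a −log10 q of at least 5, 1 R848 peak (the Tnf start) and 1 untreated peak (the Tnfrsf1b peak shared in the full lists) were left, 1 R848-only and 1 untreated-only, 100% of 1 peak in each list, against 65.0% of all R848 and 53.4% of all untreated peaks, and R848-only counts were 2 for other ligands, 5 for other receptors and 14 for signalling genes. At a −log10 q of at least 1.3 untreated-only peaks of the members numbered 2, and R848-only peaks 5 for other ligands, 14 for other receptors and 15 for signalling genes. When every gene within 50 kb took a peak, the members had 28 R848 peaks (21 R848-only) and 25 untreated peaks (18 untreated-only), and R848-only counts were 17 for other ligands, 52 for other receptors and 89 for signalling genes. By nearest transcription start, where Tnfsf9 has no entry, the members had 18 R848 and 16 untreated peaks, 11 of them untreated-only. With lists of equal length they had 3 untreated peaks, 1 of them untreated-only. The other results stayed within 1.5 times, or shares within their interval, under these settings, a mutual overlap of 50%, a gap of up to 500 bp and gene ends within 20 kb. Of 112 counts of single members under an alternative, 25 moved by more, 11 down and 14 up. No paired analysis was possible because each group was 1 library and no test was run. Each peak rests on 5 to 18 tags, so a site of a few tags can be missing from either list.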

Other observations

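Of 39 shared peaks at the genes of the other lists, 10 had a local tag density at least 1.5 times as high in the R848 library as in the untreated library, each divided by its genome mean, against 8.30% of all 11621 shared peaks. The reverse, a ratio at or below the inverse of 1.5, held for 1 of the 39 and for 20.4% of all shared peaks. Most of the 39 lay within 1 kb of a gene end, a larger share than the 21.2% of the R848 list and 8.14% of the untreated list. Those whole lists also hold unshared peaks, and 12.7% of R848-only and 2.37% of untreated-only peaks lay so near. Ratios over shared peaks near gene ends alone were not taken, so how far the 10 of 39 follow nearness to gene ends was not tested. In 9 of the 10 the untreated density was at the floor, so their ratios are lower limits and have no order among themselves, and the windows of peaks at one gene can overlap. One of the 10 was at Birc3, which encodes cIAP2, a ubiquitin ligase of TNF receptor complexes. Its shared peak (chr9:7872738-7873280), 122 bp from a gene end, held 40 tags in the R848 list and 7 tags in the untreated list, with densities of 2.27 in the R848 library and 1, the floor, in the untreated library. The others lay at Tnfaip3 (2 peaks), Tnfrsf8 (2 peaks), Otulin, Traf5, Map3k14, Cflar and Tnip1. The 4 shared peaks of Tnfaip3 held 22, 21, 14 and 12 tags in the R848 list and 6, 8, 6 and 8 tags in the untreated list, the last 2 with ratios of 1.03 and 1. The 2 of Otulin, which encodes a deubiquitinase of linear chains, held 24 and 15 tags in the R848 list and 6 and 10 tags in the untreated list. The 1 peak with the reverse was at Tnfrsf11b, the gene of the RANKL decoy receptor, with a ratio of 0.384, 6 tags in the R848 list and 18 tags in the untreated list. The tags at summits are not scaled for depth, and the genome background was 1.40 times as high in the R848 library. These peaks were chosen after their values were seen and were not tested.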
